A study of Homo sapiens with 24 samples.

Results

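The genes described here set, read or remove DNA methylation or act beside these steps: the writers DNMT1, DNMT3A and DNMT3B, the readers UHRF1 and UHRF2, the remodeller HELLS, the erasers TET1, TET2 and TET3, and EZH2, a histone methyltransferase grouped with them. They were taken by symbol from the deposited gene table, which gave 10 of 58825 genes, 1 row for each name. The RNA came from SK-HEP-1, a human cell line of liver cancer origin, in which CRISPR interference (CRISPRi, an inactive Cas9 fused to a repressor and led to a promoter by a guide RNA) had been set up with guides against PURPL, a p53-induced long noncoding RNA, or with non-targeting guides (NTC). There were 4 PURPL guide lines (sg2, sg4, sg5 and sg6) and 2 NTC lines (NTC1 and NTC2). Cells received 10 µM Nutlin-3a, which frees p53 from MDM2, or the vehicle DMSO, and were harvested at 6 h. This gave 8 PURPL guide libraries with Nutlin-3a, 8 PURPL guide libraries with DMSO, 4 NTC libraries with Nutlin-3a and 4 NTC libraries with DMSO, 24 in all. All lines, the NTC lines included, carry the CRISPRi system. Each line and treatment had 2 libraries, numbered 1 and 3 in the labels, called biological replicates there and harvests here. The sample titles do not say whether libraries of the same number in different lines were harvested together. Whether a line is 1 clone is not given in the sources used here.

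DNMT1 copies methyl marks onto the new DNA strand behind the replication fork, where UHRF1 recognises CpG sites methylated on the old strand only and recruits DNMT1. HELLS, with its activator CDCA7, opens nucleosomes for this step. DNMT3A and DNMT3B place new marks, and the TET enzymes oxidise methylcytosine, which base excision repair then replaces. EZH2 is the catalytic subunit of polycomb repressive complex 2 (PRC2) and methylates histone H3, not DNA. UHRF1, DNMT1, HELLS and EZH2 are known as genes of proliferating cells with E2F control, and p53 holds E2F targets down through CDKN1A (p21) and the RB family. The values below are transcript levels; DNA methylation itself was not analysed here.

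Library totals ran between 66.4 M and 92.1 M estimated counts, and even TET1, the lowest gene here, had 93 to 215 counts per library. PURPL lay between 0.742 and 2.90 CPM (counts scaled to library size, with TMM factors) in PURPL guide libraries and between 29.7 and 38.5 CPM in NTC libraries with Nutlin-3a. With DMSO it lay between 0.273 and 0.868 CPM in PURPL guide libraries and between 7.40 and 10.1 CPM in NTC libraries. The labels class the cells as endothelial, but the endothelial genes PECAM1 and CDH5 reached at most 0.0277 and 0.059 CPM. The hepatocyte gene ALB reached 0.0142 CPM, and SERPINA1 of the same hepatocyte list lay between 0.640 and 4.08 CPM. The mesenchymal gene VIM lay between 3566 and 4869 CPM. The epithelial keratins were also high, with KRT18 between 913.6 and 3703 CPM and KRT8 between 442.1 and 5192 CPM. Of the same epithelial list, EPCAM lay only between 0.295 and 0.761 CPM and CDH1 reached at most 0.0596 CPM. The fibroblast genes COL1A1 and COL1A2 had medians of 0.481 and 0.0745 CPM and PDGFRB lay between 0.311 and 1.91 CPM. Of the 21 markers listed for endothelial, hepatocyte, epithelial, fibroblast and leukocyte cells, 11 passed the expression filter. With Nutlin-3a 5 of these rose in the PURPL guide lines (ACTA2, COL1A1, COL1A2, KRT8 and SERPINA1). There 17.7% of all genes rose and 16.5% fell. In the NTC lines 1 rose (ACTA2), where 4.18% of all genes rose and 4.03% fell, and 0 markers fell in either. Without harvest 1 of sg2 with Nutlin-3a, described below, 12 markers were tested. Then 4 rose in the PURPL guide lines (COL1A1 no longer) and 1 in the NTC lines, and 0 fell. Of all genes 15.9% rose and 22.7% fell in the PURPL guide lines, and 8.88% and 15.9% in the NTC lines. Summed over its list, the epithelial level was 1743 to 8895 CPM with Nutlin-3a and 1356 to 2405 CPM with DMSO in the PURPL guide lines. In the NTC lines it was 1813 to 2094 CPM with Nutlin-3a and 1599 to 2535 CPM with DMSO. KRT18 and KRT8 made up nearly all of this sum. The median log2 response of the epithelial list in the PURPL guide lines was 0.4 with all libraries. It was 0.15 without harvest 1 of sg2 with Nutlin-3a. In the NTC lines the medians were -0.04 and -0.07. The sum of the fibroblast list was 3662 to 4986 CPM with Nutlin-3a and 3588 to 4241 CPM with DMSO in the PURPL guide lines. In the NTC lines it was 4023 to 4236 CPM with Nutlin-3a and 3892 to 4560 CPM with DMSO. VIM made up nearly all of this sum, since ACTA2 reached at most 108.6 CPM and COL1A1 at most 6.31 CPM. The part of these markers in the responses below was not tested. One library stands apart: harvest 1 of sg2 with Nutlin-3a, here the divergent library. In it the log2 level relative to the median library climbed by 1.47 per 10 points of GC percent, against -0.205 to 0.329 in the other 23. GC percent is that of the longest annotated transcript of a gene. Counts of calls and the members' responses are therefore given with and without it; values of single genes outside the 10 are from all libraries unless stated.

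RefSeq promoters (build GRCh38.p14, from 250 bases before to 49 after each start) were found for 10 of 10 genes. They were searched on both strands for the E2F motifs TTTGGCGC, TTTCCCGC, TTTGCCGC and TTTCGCGC and for the cell cycle homology region (CHR) motifs TTTGAA and TTCGAA, which do not overlap each other in these windows. An E2F motif was found for 4 of the 10 genes, UHRF1, HELLS, DNMT1 and EZH2, against 4.0% of 27305 genes in the table, and a CHR motif for 2 (DNMT3A and TET2), against 19.5%. The windows with an E2F motif are shown because 3 of these genes fell with Nutlin-3a in both kinds of line, and DNMT1 did so once the divergent library was left out. The windows of UHRF2 and DNMT3B, which have no match, are shown beside them. Capitals mark the motif, in the direction of the gene, so that a match on the other strand appears as its reverse complement.
UHRF1 window 1, chr19:4909251-4909550, plus strand: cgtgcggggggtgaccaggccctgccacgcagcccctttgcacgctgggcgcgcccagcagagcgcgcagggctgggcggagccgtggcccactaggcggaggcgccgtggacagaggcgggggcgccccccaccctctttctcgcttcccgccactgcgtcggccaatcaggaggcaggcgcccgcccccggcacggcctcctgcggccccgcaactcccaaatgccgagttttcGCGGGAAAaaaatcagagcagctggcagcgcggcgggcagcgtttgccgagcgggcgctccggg
UHRF1 window 2, chr19:4909894-4910193, plus strand: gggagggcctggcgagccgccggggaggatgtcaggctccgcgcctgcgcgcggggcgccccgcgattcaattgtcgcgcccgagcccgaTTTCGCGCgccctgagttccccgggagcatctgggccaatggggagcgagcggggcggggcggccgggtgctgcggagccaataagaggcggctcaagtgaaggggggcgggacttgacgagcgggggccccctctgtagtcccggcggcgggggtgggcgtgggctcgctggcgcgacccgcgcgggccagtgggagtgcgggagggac
HELLS, chr10:94545538-94545837, plus strand: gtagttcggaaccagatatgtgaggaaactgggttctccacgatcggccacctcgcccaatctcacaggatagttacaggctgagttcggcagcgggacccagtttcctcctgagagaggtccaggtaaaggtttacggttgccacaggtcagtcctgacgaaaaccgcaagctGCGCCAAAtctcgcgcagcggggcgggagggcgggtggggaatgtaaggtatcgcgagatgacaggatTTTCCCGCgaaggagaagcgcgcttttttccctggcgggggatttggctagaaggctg
DNMT1, chr19:10194904-10195203, minus strand: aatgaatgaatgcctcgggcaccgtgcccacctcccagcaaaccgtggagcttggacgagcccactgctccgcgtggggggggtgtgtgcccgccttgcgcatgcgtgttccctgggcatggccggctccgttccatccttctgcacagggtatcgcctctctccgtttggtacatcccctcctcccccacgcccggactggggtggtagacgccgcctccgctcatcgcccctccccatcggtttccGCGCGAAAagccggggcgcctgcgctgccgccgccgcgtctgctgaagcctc
EZH2 window 1, chr7:148884242-148884541, minus strand: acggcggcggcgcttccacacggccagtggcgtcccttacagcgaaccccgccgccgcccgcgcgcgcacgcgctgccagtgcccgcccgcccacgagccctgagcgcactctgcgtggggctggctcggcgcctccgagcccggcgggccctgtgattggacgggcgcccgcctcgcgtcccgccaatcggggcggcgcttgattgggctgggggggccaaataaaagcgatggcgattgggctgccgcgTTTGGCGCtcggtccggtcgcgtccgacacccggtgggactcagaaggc
UHRF2, chr9:6412949-6413248, plus strand: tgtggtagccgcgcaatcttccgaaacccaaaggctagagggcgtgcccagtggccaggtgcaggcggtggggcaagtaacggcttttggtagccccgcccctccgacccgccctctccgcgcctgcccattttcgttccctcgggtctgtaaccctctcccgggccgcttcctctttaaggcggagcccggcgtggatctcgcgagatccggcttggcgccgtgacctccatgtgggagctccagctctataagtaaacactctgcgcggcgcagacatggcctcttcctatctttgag
DNMT3B, chr20:32779602-32779901, plus strand: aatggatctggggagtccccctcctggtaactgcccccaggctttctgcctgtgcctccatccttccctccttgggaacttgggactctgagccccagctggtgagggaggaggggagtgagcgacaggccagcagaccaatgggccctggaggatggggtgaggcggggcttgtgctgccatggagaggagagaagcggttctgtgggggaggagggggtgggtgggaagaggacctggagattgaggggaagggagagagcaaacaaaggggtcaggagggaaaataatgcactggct
HELLS has a pair of matches, the nearer ending on the last base before the start. The EZH2 match begins on the base after the start, and the DNMT1 match spans it. The DNMT3B window holds 3 CpG sites, against 22 to 46 in the other windows shown. Its start lies inside the gene span of GENCODE, as do the starts of all other windows shown. For UHRF2 and EZH2 the upstream end of that span still lies within the window, and for the others it lies outside. A match is a string of letters and not a measured binding site, and which start these cells use was not analysed here.

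**Figure D1:**
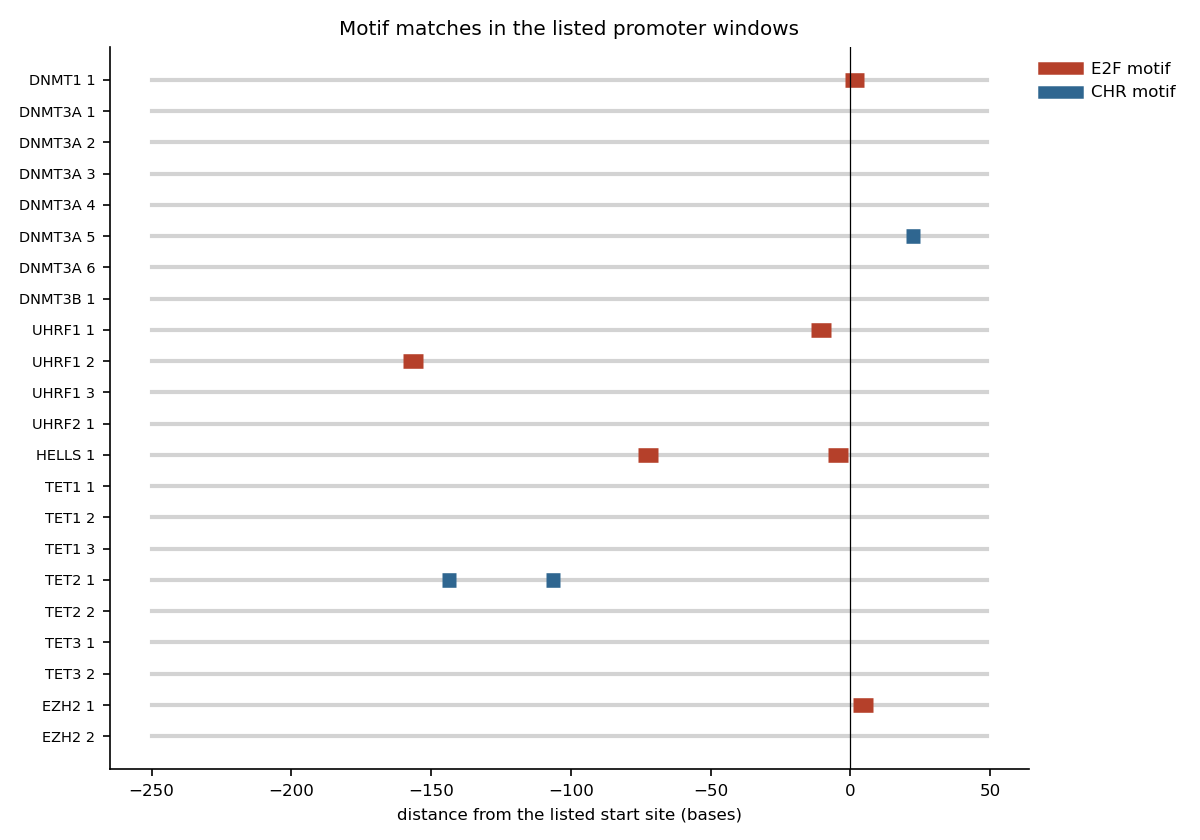
Position of E2F (red) and CHR (blue) motif matches in every listed promoter window of the 10 genes, in bases from the listed start; grey bars are the windows. E2F matches lie in windows of DNMT1, UHRF1, HELLS and EZH2, and CHR matches in windows of DNMT3A and TET2.

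With DMSO the genes differed widely in level. Per kilobase of exon in the NTC libraries, EZH2 stood highest at 21.7 ± 0.676 CPM per kb and UHRF1 next at 18.8 ± 3.03 (SD, n = 4 libraries), and their ranges overlapped. DNMT1 had 13.3 ± 0.832 CPM per kb, HELLS 7.53 ± 0.439 and UHRF2 4.14 ± 0.346 CPM per kb. Each of these lay below the range of the gene before it. Among the erasers TET3 had 2.73 ± 0.33 CPM per kb, TET2 1.54 ± 0.388 and TET1 0.186 ± 0.0433 CPM per kb. The de novo writers were low, with DNMT3B at 1.45 ± 0.109 CPM per kb, overlapping TET2, and DNMT3A at 0.589 ± 0.064 CPM per kb. By this measure the transcript of the maintenance enzyme was the most abundant of the DNA methyltransferases. That of TET3 was the most abundant of the TET family. The length used is that of all annotated exons of a gene merged, and the order depends on it. The lengths of the transcripts made in these cells were not analysed.

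With Nutlin-3a UHRF1, HELLS, DNMT3B and EZH2 fell in both kinds of line, while no fall was called for the TET genes or DNMT3A. In the PURPL guide lines 5 of 10 genes fell and 1 rose at an edgeR adjusted p under 0.05. Of all 16371 genes tested there, 16.5% fell and 17.7% rose. In the NTC lines 4 fell and 0 rose, against 4.03% and 4.18% of all genes. Without the divergent library 6 of 10 fell and 2 rose in the PURPL guide lines, where 22.7% of 16697 genes fell and 15.9% rose. Likewise 6 of 10 fell and 0 rose in the NTC lines, where 15.9% fell and 8.88% rose. The median log2 response of the 10 genes was -0.48 in the PURPL guide lines, beside 0 over all genes, and -0.41 in the NTC lines, beside -0.06, in the fits without that library. The p-values reflect how far the 2 harvests of each line scatter, and with bulk RNA fewer cells in S phase and less RNA per cell cannot be told apart.

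**Figure D2:**
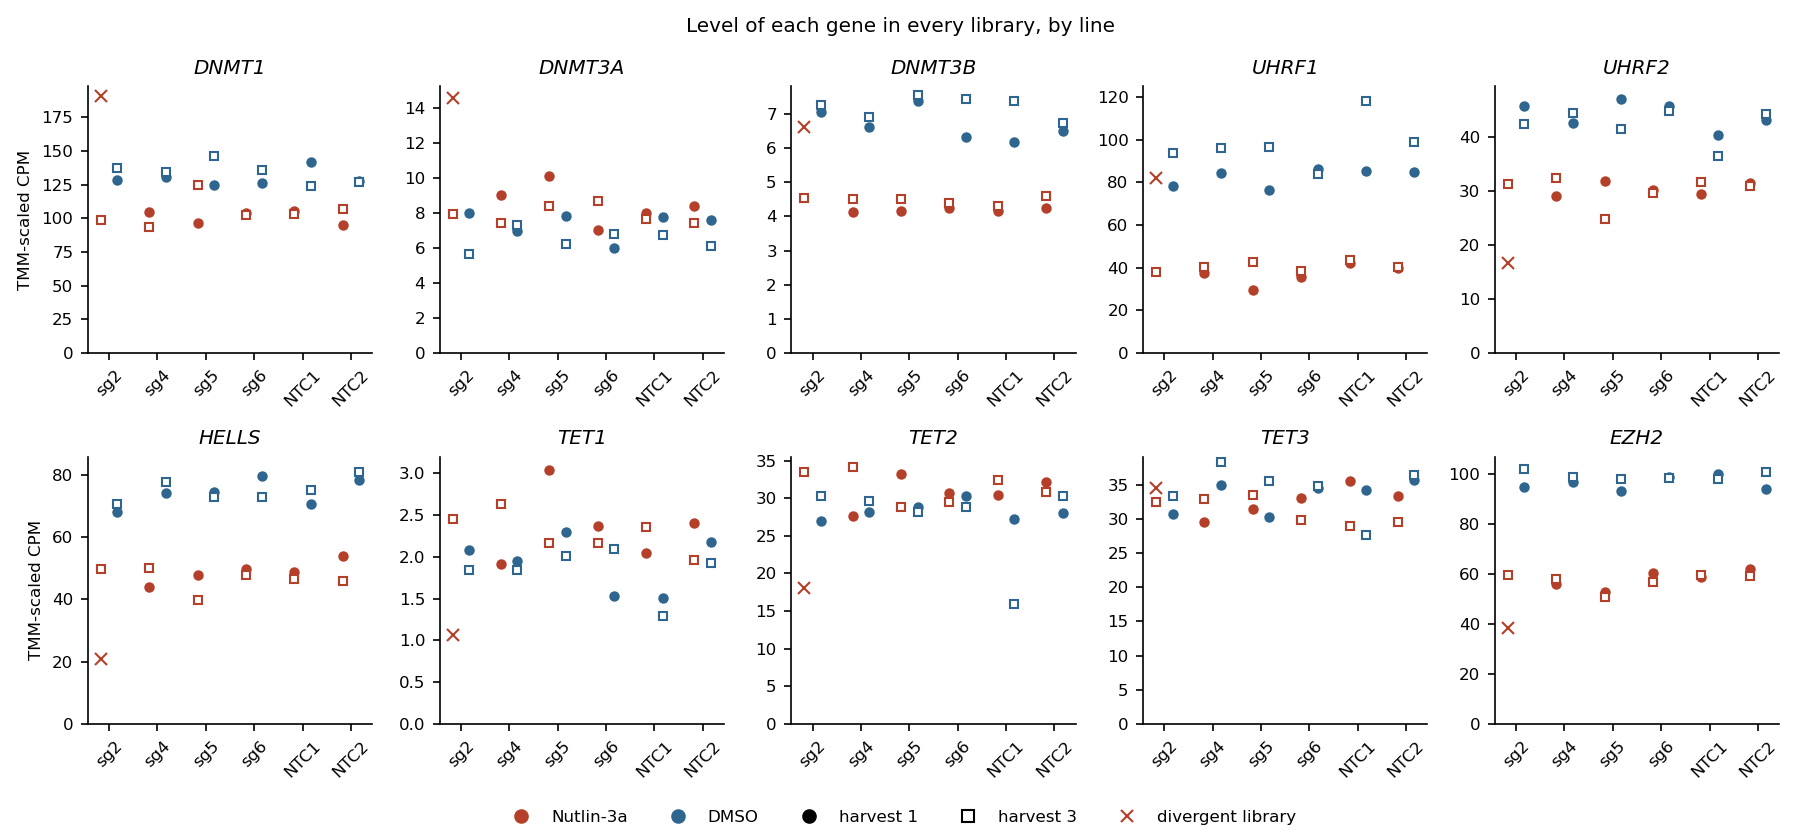
Level of each gene (TMM-scaled CPM, linear axis from 0) in all 24 libraries, by line, with Nutlin-3a (red, left) and DMSO (blue, right); circles are harvest 1, squares harvest 3 and the cross is the divergent library. UHRF1, DNMT3B, HELLS, UHRF2 and EZH2 lie lower with Nutlin-3a in every line apart from the divergent library, while TET3 overlaps between treatments.

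UHRF1, the reader of hemimethylated CpG sites, changed most. In the PURPL guide lines it had 29.7 to 81.9 CPM with Nutlin-3a (median 38.3, n = 8) and 76.3 to 96.7 CPM with DMSO (median 85.4, n = 8). In the NTC lines it had 42.1 and 43.8 CPM in NTC1 and 40.1 and 40.2 CPM in NTC2 with Nutlin-3a, against 85.5 and 118.1 CPM in NTC1 and 85.0 and 99.1 CPM in NTC2 with DMSO. The only Nutlin-3a library inside the DMSO range was the divergent one, at 81.9 CPM, and the next highest PURPL guide library had 42.5 CPM. UHRF1 fell by 1.05 on the log2 scale in the PURPL guide lines (SE 0.14, edgeR adjusted p = 3.98e-05) and by 1.22 in the NTC lines (SE 0.19, edgeR adjusted p = 0.000714). Without the divergent library the log2 fold change was -1.22 in the PURPL guide lines and -1.26 in the NTC lines, so that 0.428 and 0.418 of the DMSO level remained. With sg2 taken from that fit and the other lines from the fit on all libraries, the response over the 6 lines spanned -1.26 to -1.20. The SE was 0.22 for sg2, which then rests on a single Nutlin-3a library, and 0.27 for each other line.

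UHRF2, the paralog of UHRF1, fell less. In the PURPL guide lines it had 16.6 to 32.4 CPM with Nutlin-3a (median 29.9) and 41.6 to 47.0 CPM with DMSO (median 44.7). Its NTC libraries had 29.4, 31.6, 31.5 and 31.0 CPM with Nutlin-3a (in the order NTC1 harvests 1 and 3, then NTC2 harvests 1 and 3, kept below), against 40.3, 36.6, 43.1 and 44.3 CPM with DMSO. The treatments did not overlap in either kind of line. UHRF2 fell by 0.66 on the log2 scale in the PURPL guide lines (SE 0.10, edgeR adjusted p = 0.000197), and by 0.58 without the divergent library. In the NTC lines the log2 fold change of -0.41 (SE 0.14) did not pass with all libraries (edgeR adjusted p = 0.105) and passed without the divergent one (-0.44, SE 0.07, edgeR adjusted p = 0.000173), since the spread is estimated over all lines. UHRF2 has no E2F match in its window, printed above.

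HELLS, the remodeller that opens chromatin for maintenance methylation, had 20.8 to 50.0 CPM with Nutlin-3a (median 47.9) and 68.1 to 79.8 CPM with DMSO (median 73.6) in the PURPL guide lines. Its NTC libraries had 48.9, 46.7, 53.8 and 45.9 CPM with Nutlin-3a and 70.8, 75.2, 78.4 and 81.2 CPM with DMSO. All 12 Nutlin-3a libraries lay below all 12 DMSO libraries. HELLS fell by 0.77 on the log2 scale in the PURPL guide lines (SE 0.13, edgeR adjusted p = 0.000349), and by 0.66 without the divergent library. In the NTC lines it fell by 0.64 (SE 0.18, edgeR adjusted p = 0.0373), a call that was lost when any of 7 of the 8 NTC libraries was left out (edgeR adjusted p up to 0.118) and that stood at 8.97e-07 without the divergent library.

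DNMT1, the maintenance methyltransferase, had 93.8 to 190.4 CPM with Nutlin-3a (median 103.5) and 125 to 146.4 CPM with DMSO (median 132.6) in the PURPL guide lines. NTC libraries had 105.5, 103.5, 94.7 and 106.9 CPM with Nutlin-3a and 142, 123.6, 127.9 and 127 CPM with DMSO. The divergent library, at 190.4 CPM, was the highest of all 24, and the other 11 Nutlin-3a libraries lay below the DMSO libraries of their own kind of line. DNMT1 did not pass with all libraries, with -0.23 in the PURPL guide lines (SE 0.11, edgeR adjusted p = 0.0985) and -0.34 in the NTC lines (SE 0.15, edgeR adjusted p = 0.221). Once that library was left out, DNMT1 fell by 0.38 in both, with edgeR adjusted p = 8.39e-05 in the PURPL guide lines and 0.00238 in the NTC lines.

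The de novo writers moved apart. DNMT3B had 4.14 to 6.63 CPM with Nutlin-3a (median 4.45) and 6.33 to 7.54 CPM with DMSO (median 7.15) in the PURPL guide lines. NTC libraries had 4.17, 4.31, 4.26 and 4.59 CPM with Nutlin-3a and 6.19, 7.38, 6.51 and 6.75 CPM with DMSO, with no overlap. It fell by 0.62 on the log2 scale in the PURPL guide lines (SE 0.09, edgeR adjusted p = 7.77e-05) and by 0.63 in the NTC lines (SE 0.12, edgeR adjusted p = 0.00365). The NTC call was lost on line sums with a term for each line (edgeR adjusted p = 0.0669) and with no filter on low counts (0.0942). With the divergent library left out of the model, DNMT3B had -0.70 in the PURPL guide lines and -0.67 in the NTC lines.

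DNMT3A had 7.07 to 14.6 CPM with Nutlin-3a (median 8.58) and 5.67 to 8.03 CPM with DMSO (median 6.89) in the PURPL guide lines. Across the NTC lines it had 8.00, 7.67, 8.44 and 7.46 CPM with Nutlin-3a and 7.80, 6.78, 7.62 and 6.15 CPM with DMSO. The treatments overlapped. In each of the 12 pairs of the same line and harvest number the Nutlin-3a library was the higher one. Such pairing was not assumed in the main fits, and across harvest numbers the order could turn. In NTC1, harvest 3 with Nutlin-3a had 7.67 CPM and harvest 1 with DMSO 7.80 CPM. DNMT3A rose by 0.41 on the log2 scale in the PURPL guide lines (SE 0.13, edgeR adjusted p = 0.0256), and by 0.27 without the divergent library (edgeR adjusted p = 0.039). Its log2 fold change of 0.16 in the NTC lines (SE 0.18) did not pass (edgeR adjusted p = 0.761), nor did 0.12 without the divergent library. The call in the PURPL guide lines was lost when any of 8 of the 15 other libraries of these lines was left out, with edgeR adjusted p up to 0.0853.

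No fall was called for any TET eraser. TET3 had 29.6 to 34.5 CPM with Nutlin-3a and 30.4 to 38.4 CPM with DMSO in the PURPL guide lines, and its log2 fold change was -0.08 there (SE 0.07) and -0.07 in the NTC lines (SE 0.10), neither past the threshold. Leaving out the divergent library gave -0.11 in the PURPL guide lines and -0.10 in the NTC lines, which did not pass either. TET2 had 18.0 to 34.1 CPM with Nutlin-3a and 27.0 to 30.3 CPM with DMSO in the PURPL guide lines. Across the NTC lines it had 30.4, 32.4, 32.2 and 30.9 CPM with Nutlin-3a and 27.2, 16.0, 28.0 and 30.2 CPM with DMSO. The low DMSO library is harvest 3 of NTC1. The NTC log2 fold change, which did not pass, was 0.33 (SE 0.17, edgeR adjusted p = 0.335) and drew on it: the response was 0.54 in NTC1 and 0.11 in NTC2. In that library the log2 level climbed by 0.294 per 10 points of GC percent. Its median r with the other DMSO libraries, 0.987, was the lowest apart from the divergent library. It also had the highest UHRF1 level with DMSO, 118.1 CPM. The part of GC content in these levels was not tested. TET2 had 0.02 in the PURPL guide lines (SE 0.12, edgeR adjusted p = 0.896). Leaving out the divergent library gave 0.10 in the PURPL guide lines and 0.29 in the NTC lines (edgeR adjusted p = 0.363 and 0.0744).

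TET1, an eraser with a CXXC domain for CpG-rich DNA and the lowest gene of the set, had 1.06 to 3.05 CPM with Nutlin-3a and 1.53 to 2.30 CPM with DMSO in the PURPL guide lines. Its NTC levels were 2.05, 2.36, 2.41 and 1.96 CPM with Nutlin-3a and 1.51, 1.29, 2.18 and 1.93 CPM with DMSO. Its log2 fold change was 0.17 in the PURPL guide lines (SE 0.16, edgeR adjusted p = 0.392) and 0.37 in the NTC lines (SE 0.22, edgeR adjusted p = 0.415). Without the divergent library it rose by 0.28 in the PURPL guide lines at edgeR adjusted p = 0.0499, just inside the threshold, and had 0.34 in the NTC lines (edgeR adjusted p = 0.104). The Nutlin-3a library was higher in 10 of 12 pairs of the same line and harvest number, a pairing not assumed in the main fits.

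EZH2, the histone H3 lysine methyltransferase, had 38.2 to 60.5 CPM with Nutlin-3a (median 56.2) and 93.3 to 101.9 CPM with DMSO (median 98.1) in the PURPL guide lines. Its NTC levels were 58.7, 59.5, 61.8 and 59.2 CPM with Nutlin-3a and 99.9, 97.9, 93.8 and 100.6 CPM with DMSO. Every Nutlin-3a library lay below every DMSO library by at least 31.5 CPM. EZH2 fell by 0.86 on the log2 scale in the PURPL guide lines (SE 0.07, edgeR adjusted p = 4.89e-07) and by 0.71 in the NTC lines (SE 0.10, edgeR adjusted p = 0.000295). Leaving out the divergent library gave -0.80 in the PURPL guide lines and -0.75 in the NTC lines.

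**Figure D3:**
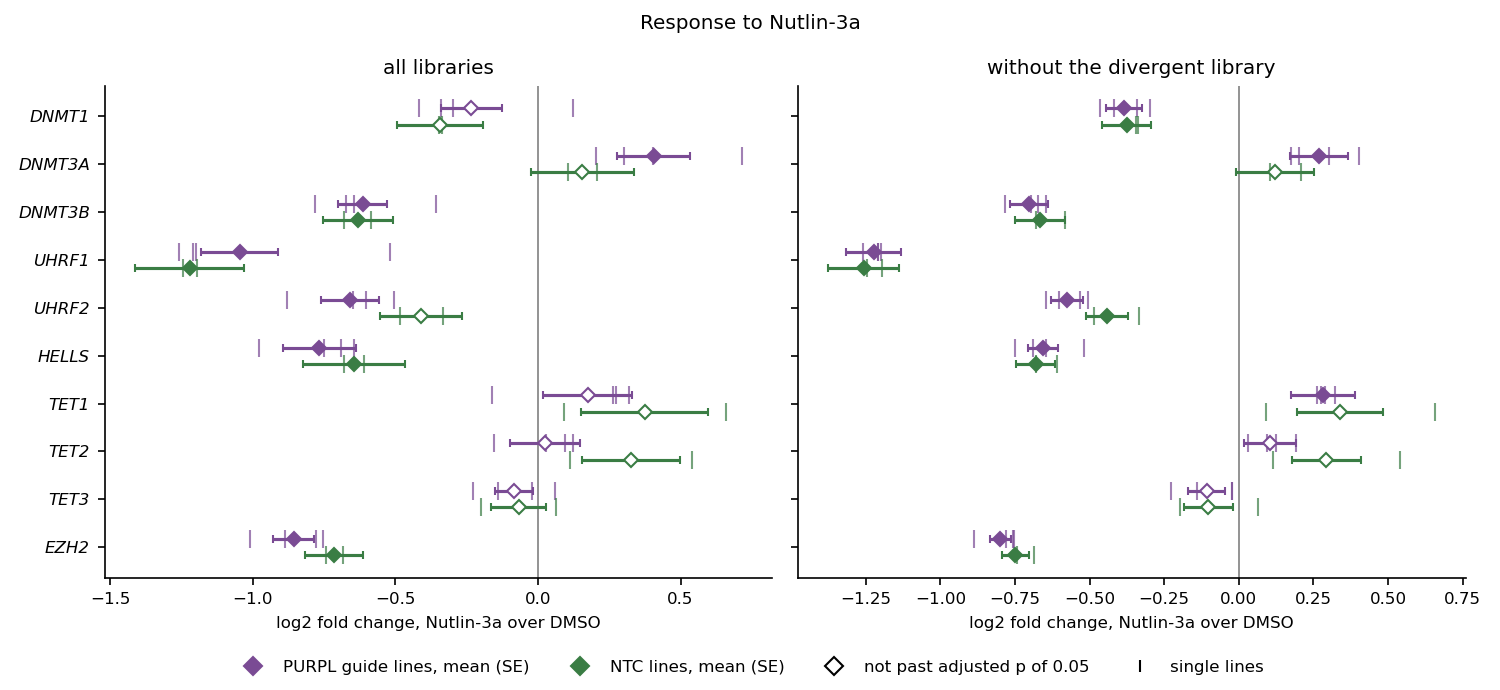
Log2 fold change of Nutlin-3a over DMSO for each gene in PURPL guide lines (purple) and NTC lines (green), with SE bars, filled where the edgeR adjusted p is under 0.05; ticks are single lines. Left, all libraries, and right, without the divergent library, where UHRF1 stands at -1.22 and -1.26 and DNMT1, UHRF2, HELLS, DNMT3B and EZH2 also lie left of 0. In the right panel only the sg2 ticks come from the fit without that library. The ticks of the other lines come from the fit on all libraries.

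The divergent library sorted the genes by base composition. Against the 7 other PURPL guide libraries with Nutlin-3a, it lay above their range for DNMT1, DNMT3A, DNMT3B, UHRF1 and TET3, whose longest transcripts have 52.3% to 55.4% GC. It lay below their range for UHRF2, HELLS, TET1, TET2 and EZH2, with 37.6% to 44.2% GC. The log2 difference reached 1.13 for UHRF1 and -1.17 for HELLS. With the trend on GC content removed in every library, an analysis added after the data were seen, 6 of 10 genes fell and 2 rose in the PURPL guide lines, where 22.4% of all genes fell and 23.4% rose. In the NTC lines 6 fell and 1 rose, where 11.5% of all genes fell and 11.5% rose. In that fit DNMT3A had 0.24 (edgeR adjusted p = 0.0351) and TET1 0.32 (edgeR adjusted p = 0.0146) in the PURPL guide lines, and TET2 0.33 (edgeR adjusted p = 0.0333) in the NTC lines.

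Across the 23 other libraries Pearson's r of log2 CPM lay between 0.736 and 0.975 for the 15 pairs among DNMT1, DNMT3B, UHRF1, UHRF2, HELLS and EZH2. The lowest was that of DNMT1 with UHRF2 and the highest that of HELLS with EZH2. DNMT3A had -0.708 with UHRF1, and TET3 had 0.347 with UHRF1. These libraries share the 2 treatments, which alone can align genes that respond, so r is only a description. By the same measure over 12132 genes of at least 1 CPM, the genes most like UHRF1 were PSMC3IP (0.993), TCF19 (0.991) and ORC6 (0.989), and those most like EZH2 were ZNF367, ZNF530 and SLBP (0.992 each). HELLS was closest to PRPS2 and ABHD17C (0.983 each) and RFC3 (0.982), DNMT3B to BUD13 (0.98), GGA2 and CDK2 (0.978 each), and DNMT1 to XPO6 (0.981), INCENP (0.969) and PPRC1 (0.965). UHRF2 was closest to KCTD3 (0.986), GMPS (0.984) and SESTD1 (0.98). For DNMT3A (SLC35E2B, 0.921; SCAND2P, 0.891; MOAP1, 0.886) and TET1 (LINC00632, 0.906; AC005332.6, 0.88; TMEM144, 0.865) the likeness was looser. TET2 was closest to CLCN3 (0.962), ZKSCAN8 (0.961) and N4BP2 (0.959), and TET3 to KIAA1549L (0.835) and AGO2 (0.832).

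The genes of DNA replication and E2F control, were a list set beside the 10 genes as comparators. Of 24 such genes, 18 fell and 0 rose in the PURPL guide lines (16.5% and 17.7% of all genes) and 16 fell and 0 rose in the NTC lines (4.03% and 4.18% of all genes). Without the divergent library 23 fell and 1 rose (TYMS, thymidylate synthase) in the PURPL guide lines, where 22.7% and 15.9% of all genes did. In that fit 21 fell and 0 rose in the NTC lines, where 15.9% and 8.88% of all genes did. The same shares of all genes apply to each list below. Their median log2 response was -0.87 in the PURPL guide lines and -0.86 in the NTC lines, beside 0.05 and -0.02 over all genes. The replication origin subunit ORC1 fell by 1.37 in the PURPL guide lines (SE 0.06) and by 1.34 in the NTC lines (SE 0.08). Cyclin E1 (CCNE1) fell by 1.89 in the PURPL guide lines and by 1.71 in the NTC lines, and the chromatin assembly subunit CHAF1B by 0.98 and 1.02, in the same order of lines. The log2 fold change of the transcription factor E2F2 was -2.70 in the PURPL guide lines and -2.71 in the NTC lines. UHRF1, at -1.05 and -1.22, lay within the span of this list. An E2F motif was present in listed promoters of 11 of 20 of these genes. Among genes with a listed promoter it was present in 14.7% of the 497 that fell in the NTC lines, 5.3% of the 431 that rose and 6.5% of all 10918 tested. The share among genes that fell was 10.4% in the PURPL guide lines and, without the divergent library, 9.5% in the PURPL guide lines and 10.3% in the NTC lines.

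Cofactors of maintenance methylation split. Of 6 tested, 3 fell and 2 rose in the PURPL guide lines, and 2 fell and 1 rose in the NTC lines; without the divergent library the counts were 3 and 1 in the PURPL guide lines and 2 and 1 in the NTC lines. CDCA7, the activator of HELLS, fell by 0.96 in the PURPL guide lines (SE 0.08, edgeR adjusted p = 4.1e-07) and by 0.89 in the NTC lines (SE 0.11, edgeR adjusted p = 0.000103). Its relative CDCA7L fell by 0.73 and by 0.62. PCNA, the sliding clamp that tethers DNMT1 to the fork and a known p53 target, rose by 0.35 in the PURPL guide lines (edgeR adjusted p = 0.00141) and by 0.42 in the NTC lines (edgeR adjusted p = 0.0135). DNMT3L, the catalytically inactive partner of the de novo enzymes, was at 0 in all 24 libraries.

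A further list held 10 genes of the methyl-CpG binding domain family and other methyl-CpG binding proteins. Being on it does not show that a protein binds methylated DNA. Of these genes, 3 fell and 3 rose in the PURPL guide lines and 1 fell and 1 rose in the NTC lines, with a median of 0.07 and -0.06. With the divergent library left out of the fit, 5 fell and 4 rose in the PURPL guide lines and 3 fell and 3 rose in the NTC lines. MBD4, a glycosylase that repairs mismatches at methylated CpG sites, fell by 0.66 in the PURPL guide lines and by 0.43 in the NTC lines (edgeR adjusted p = 0.0224). MBD5 rose by 0.60 in the PURPL guide lines and by 0.65 in the NTC lines (edgeR adjusted p = 0.01).

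Of 15 genes of active demethylation and base excision, 2 fell and 3 rose in the PURPL guide lines and 3 fell and 1 rose in the NTC lines. In the PURPL guide lines these shares lie near those of all genes. Leaving out the divergent library gave 5 fallen and 3 risen in the PURPL guide lines and 5 fallen and 1 risen in the NTC lines. GADD45A, a known p53 target linked to demethylation, rose by 1.30 in the PURPL guide lines (SE 0.06) and by 1.24 in the NTC lines (SE 0.09, edgeR adjusted p = 3.53e-07). The uracil glycosylase UNG fell by 1.28 in the PURPL guide lines (SE 0.06) and by 1.20 in the NTC lines (SE 0.09, edgeR adjusted p = 4.79e-07), and the glycosylase NEIL3 fell by 1.14 and by 0.86. CXXC5, a CXXC protein that binds CpG DNA, fell by 0.68 in the NTC lines (edgeR adjusted p = 0.0481) and had -0.33 in the PURPL guide lines (edgeR adjusted p = 0.0742).

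In PRC2, 5 of 11 tested genes other than EZH2 fell and 1 rose in the PURPL guide lines, and 1 fell and 1 rose in the NTC lines; without the divergent library 7 fell and 1 rose in the PURPL guide lines and 6 fell and 1 rose in the NTC lines. EZH1, the paralog of EZH2 that is typical of resting cells, rose by 0.47 in the PURPL guide lines (SE 0.07, edgeR adjusted p = 0.000215) and by 0.43 in the NTC lines (SE 0.10, edgeR adjusted p = 0.0172), opposite to EZH2. The accessory subunit EPOP fell by 0.67 in the PURPL guide lines and by 0.88 in the NTC lines.

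The remaining lists had 0 calls in the NTC lines with all libraries. Of 12 tested genes of the methyl donor cycle, 6 fell and 2 rose in the PURPL guide lines and 0 changed in the NTC lines. Without the divergent library the counts were 8 fallen and 2 risen in the PURPL guide lines, and 5 fallen and 0 risen in the NTC lines, led by AMD1 (-0.53 in the NTC lines), which turns the methyl donor towards polyamine synthesis. Of 13 genes that supply or compete for the TET cosubstrate 2-oxoglutarate, 3 fell and 2 rose in the PURPL guide lines, near the shares of all genes, and 0 changed in the NTC lines; without the divergent library the PURPL guide counts were again 3 and 2, and 2 fell and 1 rose in the NTC lines. Of 13 tested genes of H3K9 methylation and heterochromatin, 4 fell and 0 rose in the PURPL guide lines and 0 changed in the NTC lines; without the divergent library 5 fell in the PURPL guide lines and 7 in the NTC lines. SUV39H2, a histone methyltransferase of heterochromatin, then had -0.87 in the PURPL guide lines and -0.73 in the NTC lines.

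**Figure D4:**
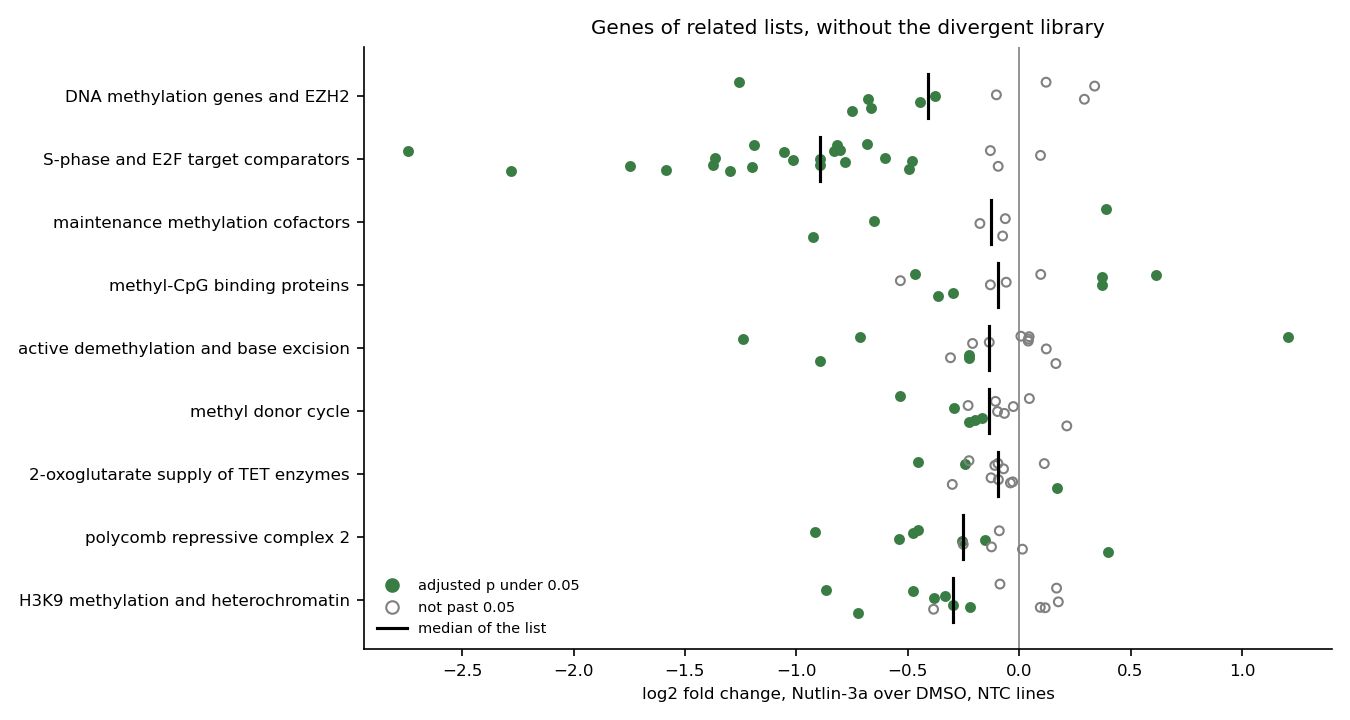
Log2 fold change of Nutlin-3a over DMSO in the NTC lines, without the divergent library, for the 10 genes and the related lists; each point is a gene, filled where the edgeR adjusted p is under 0.05, and black bars are list medians. The replication and E2F list has the lowest median, at -0.89, and the 10 genes have -0.41.

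Most of the listed germline genes, a class known to be silenced by promoter methylation, were low, with GAGE1 and MAGEC2 as exceptions. Of 25 such genes, 5 passed the expression filter, and 0 of them changed in either kind of line with all libraries. GAGE1 reached at most 22.8 CPM and MAGEC2 10.2 CPM, and the other 23 genes lay under 1 CPM in every library. Without the divergent library MAGEC2 rose by 0.17 in the PURPL guide lines (edgeR adjusted p = 0.0396). It was the 1 rise among the 5 tested, where 15.9% of all genes rose.

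The last question was whether the PURPL guides changed these genes. With DMSO 0 of 10 genes differed between the 4 PURPL guide lines and the 2 NTC lines, where 0.00601% of all genes passed, a single gene, PURPL itself. At an unadjusted p under 0.05 there was 1 of the 10, UHRF1, with a log2 difference of -0.17 (SE 0.07, edgeR adjusted p = 0.825). The 95% intervals of the differences bound what could have been missed: for DNMT1 they ran between -0.10 and 0.17, for EZH2 between -0.14 and 0.12 and for TET1, the widest, between -0.22 and 0.59.

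With Nutlin-3a 0 of 10 genes differed between the lines, where 0% of all genes passed, and again 0 without the divergent library, where 0.00596% did. At an unadjusted p under 0.05 there were 0 of 10 in the first fit and 1 in the second, UHRF1. It had 0.07 with all libraries (SE 0.25) and -0.15 without the divergent one (SE 0.05, edgeR adjusted p = 0.828), so its sign turned with that library. The difference of the Nutlin-3a responses, PURPL guide lines minus NTC lines, also passed for 0 of 10 genes, with 0% of all genes passing with all libraries and 0% without the divergent one. At an unadjusted p under 0.05 there were 0 of 10 for this difference in either fit of edgeR. Without that library its 95% interval ran between -0.14 and 0.18 for UHRF1, -0.20 and 0.12 for DNMT1 and -0.25 and 0.10 for EZH2. The calls that appear in one kind of line alone, such as DNMT3A, are therefore not shown to differ between them. With NTC2 left out, the DMSO comparison has 1 NTC line and takes its spread from the 4 PURPL guide lines alone, so it sets these lines against NTC1 and not against NTC lines in general. In that fit UHRF1 (-0.26), UHRF2 (0.21), TET1 (0.49) and TET2 (0.45) passed, as did 3249 genes of the whole table downward and 3075 upward. With NTC1 left out 0 of 10 passed. DESeq2 likewise called 0 of 10 genes in each of the 3 guide comparisons.

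**Figure D5:**
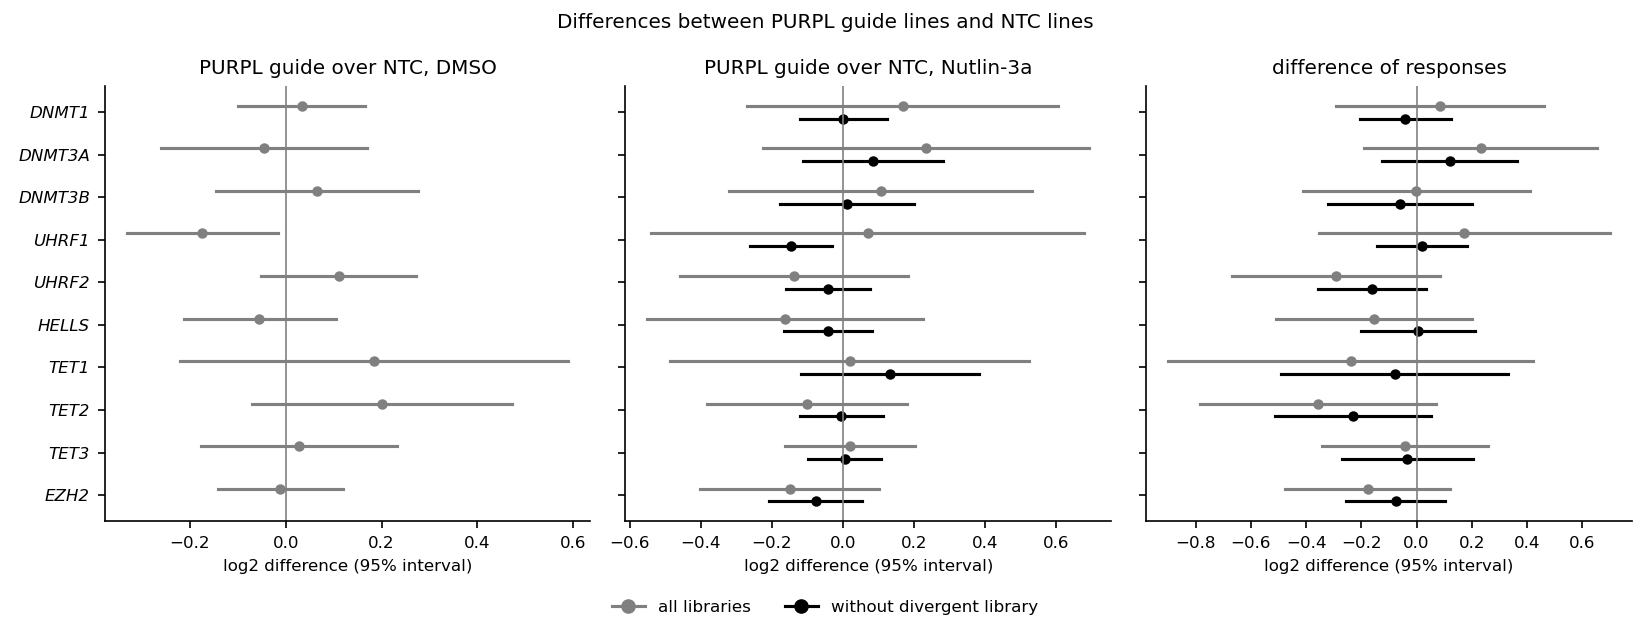
Log2 differences with 95% intervals for each gene: PURPL guide over NTC lines with DMSO (left), with Nutlin-3a (middle) and the difference of Nutlin-3a responses (right), with all libraries (grey) and without the divergent one (black). No gene passed an edgeR adjusted p of 0.05 in any panel, and the intervals are wider with all libraries.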

How the data were processed

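Polyadenylated RNA of 24 SK-HEP-1 CRISPRi libraries was sequenced with a stranded TruSeq kit, per the labels' protocols. The values deposited by the authors are expected counts (estimated counts) per gene, made by RSEM per the submitters' processing notes. Those notes also list cutadapt, STAR, DESeq2 and hg38. Tool versions and the strand setting of the counting were not given in the sources used here. Per library, 5.6% to 7.16% of values were not whole numbers.

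Second copies of pseudoautosomal genes, 45 rows with 0.0222% of counts, were added to their X rows, which left 58825 genes, and counts were rounded. Exon lengths (merged over transcripts), GC content (of the longest transcript) and spans are those of GENCODE release 29 (hg38). Of the IDs, 47420 matched with version and 58552 without. DNMT1 shares 83 exon bases with S1PR2, whose counts are 0.655% of its own, and HELLS 438 with AL138759.1.

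Counts were TMM-scaled in edgeR 4.0.16 (R 4.3.3), filtered with filterByExpr (minimum count 10) and tested with the robust quasi-likelihood F test, with Benjamini-Hochberg adjustment over all genes and a threshold of 0.05. Nutlin-3a responses came from 1 model of the 12 group means over 24 libraries, with 12 residual degrees of freedom. For guide comparisons both harvests of a line were summed, giving 4 lines against 2, and the difference of responses used 12 such sums with a term for each line. SE is the log2 fold change over the root of F. DESeq2 1.42.0 served as an alternative, beside other scaling and filters, harvest blocks, left-out libraries or lines, and a GC trend removed per library, which was added after the data were seen. Library totals of 66.4 M to 92.1 M keep counting error small, and the intervals cover the spread between lines.

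The 10 genes and all lists were chosen with earlier results of these data known. Named are all 10 genes, up to 4 genes of each list by smallest p among those called in the NTC lines, and the 3 genes most like each member by r, of which 1 is not reported here. TYMS, DNMT3L, AMD1, SUV39H2, MAGEC2 and GAGE1 were named after their values were seen. Protein sequences, long-read data and other cell lines were not used here.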

Additional observations from a re-analysis of the deposited data

Results flagged for a closer look

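In 40 groups of 4 to 8 libraries (each gene by kind of line and treatment), 7 groups had a library that stood further from its neighbour than a Dixon test at 95% allows; chance alone gives about 1 in 20. All 7 concern harvest 1 of sg2 with Nutlin-3a. It had 190.4 CPM of DNMT1, 14.56 CPM of DNMT3A, 6.627 CPM of DNMT3B and 81.87 CPM of UHRF1, each above the other PURPL guide libraries with Nutlin-3a. It had 20.77 CPM of HELLS, 18.01 CPM of TET2 and 38.15 CPM of EZH2, each below them. The next libraries had 124.6 CPM of DNMT1, 10.13 CPM of DNMT3A, 4.532 CPM of DNMT3B, 42.54 CPM of UHRF1, 39.77 CPM of HELLS, 27.61 CPM of TET2 and 50.74 CPM of EZH2. The GC slope of this library, 1.465 log2 units per 10 points of GC percent, moves with these values, and it was the highest of the 24.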

How the results depend on the processing

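Over all alternatives the number of the 10 genes that fell with Nutlin-3a ran between 5 and 6 in the PURPL guide lines and between 3 and 6 in the NTC lines. UHRF1 and EZH2 kept their call in both kinds of line under every alternative run, as DNMT3B, UHRF2 and HELLS did in the PURPL guide lines. DNMT3B in the NTC lines had edgeR adjusted p = 0.0942 with no filter on low counts and 0.0669 on line sums. The number that rose in the PURPL guide lines was 1, but 0 with only the lines compared in the fit, and 2 without harvest 1 of sg2 with Nutlin-3a, with the GC trend removed, or with both; leaving out any 1 of the other 15 libraries gave 0 to 1. In the NTC lines it was 0, but 1 with the GC trend removed and 2 when that library was also left out. With DMSO, leaving out a line or a harvest number gave 0 to 3 genes higher and 0 to 1 lower in the PURPL guide lines, the highest counts without NTC2. DESeq2 counted the same numbers of the 10 genes as edgeR. Over all genes, 2896 rose (alternatives 1414 to 5695) and 2707 fell (1770 to 5525) in the PURPL guide lines, and 685 rose (357 to 2392) and 659 fell (294 to 2680) in the NTC lines.

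Values near 0 changed sign, and the cause was not tested. The difference of responses for DNMT3B, -0.001, was 0.024 with no filter, 0.013 with a filter at 1 CPM and 0.016 on single harvests. Without the sg2 library that difference was -0.040 for DNMT1 and 0.005 for HELLS, and UHRF1 in the guide comparison with Nutlin-3a was -0.145. TET2 in the PURPL guide lines was -0.009 on line sums. No pairing by harvest number was assumed: deviations of same-numbered Nutlin-3a and DMSO harvests of a line correlated at 0.019 to 0.324. With the harvest number as a replicate block, 5 genes fell and 1 rose in the PURPL guide lines and 4 fell and 0 rose in the NTC lines; the block changed no call among the 10 genes, and the DNMT3B difference of responses was 0.017.

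With 1 library, line or harvest number left out, these log2 values crossed 0. For the Nutlin-3a response in the PURPL guide lines they spanned TET1 -0.026 to 0.208 and TET2 -0.124 to 0.037. For PURPL guide over NTC lines with DMSO they spanned DNMT1 -0.073 to 0.136, DNMT3A -0.091 to 0.002, HELLS -0.111 to 0.005, TET1 -0.066 to 0.494, TET2 -0.011 to 0.451, TET3 -0.091 to 0.149 and EZH2 -0.026 to 0.005. With Nutlin-3a they spanned DNMT3B -0.001 to 0.202, UHRF1 -0.147 to 0.189, HELLS -0.328 to 0.027, TET1 -0.077 to 0.137, TET2 -0.180 to 0.006 and TET3 -0.087 to 0.148. For the difference of responses they spanned DNMT1 -0.172 to 0.330, DNMT3B -0.074 to 0.056, HELLS -0.399 to 0.082, TET1 -0.552 to 0.055 and TET3 -0.199 to 0.097.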

Other observations

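With DMSO, UHRF1 was higher in harvest 3 in 5 of 6 lines, at 83.9 to 118.1 CPM in harvest 3 and 76.3 to 86.5 CPM in harvest 1. DNMT3B was higher in harvest 3 in 6 of 6 lines with DMSO, at 6.75 to 7.54 CPM in harvest 3 and 6.19 to 7.37 CPM in harvest 1. These differences between harvests were not tested. The pseudogenes UHRF2P1 and EZH2P1 reached at most 4 counts and 1 count in a library. The pseudogene TET1P1 and the antisense gene TET2-AS1 had 0 counts in all 24 libraries.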
